A study of Mus musculus with 32 samples.

Results

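Wnt, Bmp and Fgf proteins are the secreted signals with which embryonic cells direct the fate, growth and arrangement of their neighbours. The genes described here are the 52 protein-coding genes of the GENCODE M21 annotation whose symbol is Wnt, Bmp or Fgf followed by a number, with an a or b where the name has one. They are 19 Wnt, 11 Bmp and 22 Fgf genes, of 21897 protein-coding genes and of 55385 genes in the files, and the rule reads their symbols alone.

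Wnt proteins bind Frizzled receptors and, in the pathway best known for them, stabilise β-catenin, which then acts with Lef and Tcf factors on target genes. Bmp proteins bind paired serine/threonine kinase receptors that phosphorylate Smad proteins, and Fgf proteins bind receptor tyrosine kinases that signal through Ras and the MAP kinases. In the mouse most of these ligands are known for their work after implantation, in gastrulation and organ formation, whereas Fgf4 acts in the blastocyst, where it directs cells of the inner cell mass to primitive endoderm, and Bmp15 is a growth factor that the oocyte sends to the follicle. Not every symbol names a classical ligand: Bmp1 is a protease, Fgf11, Fgf12, Fgf13 and Fgf14 stay inside the cell, and Fgf15, Fgf21 and Fgf23 are hormones.

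The study asked what acetylation and deacetylation of histones do around zygotic genome activation (ZGA), when the embryo begins to transcribe its own genes. All embryos were WT and came from in vitro fertilization of B6D2F1/J oocytes with B6D2F1/J sperm, from mice of 6 to 8 weeks. In the A-485 experiment, zygotes and 2-cell embryos of an early and a late stage had been kept in 10 µM A-485, an inhibitor of the acetyltransferases CBP and p300, or in DMSO, from 4 to 20 h after fertilization. In the TSA experiment, late 2-cell embryos had been kept in 50 nM TSA, an inhibitor of histone deacetylases (HDACs), or in DMSO, from 8 to 28 h. Total RNA-seq was made for these 8 groups with 2 libraries each, and open chromatin was mapped by ATAC-seq in the A-485 experiment, at early 2-cell and late 1-cell, as 4 lists of peaks. The late 2-cell embryos thus have separate DMSO groups, which were told apart by the stem of their titles. The labels do not say that the libraries of a group came from separate pools of embryos, so the p-values below measure the spread between these libraries, which may be technical. RNA came from whole embryos, and fewer cells that express a gene cannot be told apart from less RNA per cell.

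The depth of the 16 libraries lay between 13206163 and 32585987 expected counts, and the A-485-treated late 2-cell embryos had the shallowest libraries. Levels are given as FPKM, which is per length and can be compared between genes, with the value of each of the 2 libraries of a group. All 8 markers of oocyte and maternal RNA were at 1 FPKM or more in every group, with a sum of 2113 to 2242 FPKM in DMSO-treated zygotes and of 641 to 689 FPKM in the late 2-cell DMSO group of the A-485 experiment. The 6 markers of 2-cell embryos summed to 13.7 to 14.9 FPKM in DMSO-treated zygotes and to 358 to 420 FPKM in DMSO-treated early 2-cell embryos. The sum of 9 cumulus and granulosa cell markers was at most 14.1 FPKM in any library. That of 6 sperm markers was at most 18.9 FPKM, in DMSO-treated zygotes, where it was above that of the 2-cell markers. Almost all of it there was Prm2 (15.0 and 18.8 FPKM), while Prm1, Tnp1, Tnp2 and Akap4 were at 0.

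The ligand RNA of these embryos was mostly that of Bmp15. In zygotes Bmp15 was at 643 and 544 FPKM in DMSO-treated and at 594 and 598 FPKM in A-485-treated libraries, and it made up 80.4% to 81.9% of all counts of the 52 genes. In the late 2-cell DMSO groups it was at 147 and 161 FPKM in the A-485 experiment and at 127 and 130 FPKM in the TSA experiment, and its share was 54.8% to 59.9%. Every zygote library was above every late 2-cell DMSO library. Bmp15 lies on the X chromosome (chrX:6314107-6320721 on the minus strand, GRCm38).

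Few members stood beside it in DMSO-treated embryos. In each DMSO group 10 or 11 of the 52 genes had a mean FPKM of at least 1, which is 19.2% to 21.2%, while 45.5% to 48.6% of protein-coding genes did. Bmp5, Bmp6, Bmp7, Bmp15, Fgf8 and Fgf9 reached this level in all 8 groups. Bmp6, another ligand that the oocyte makes, lay between 22.15 and 56.0 FPKM in every library, Fgf9, a ligand known from the gonad, between 8.15 and 23.6 FPKM, and Bmp7, known from the kidney, between 1.28 and 3.93 FPKM. In the late 2-cell DMSO libraries of the A-485 experiment, the order from high to low was Bmp15, Bmp5 and Bmp6, Fgf4, then Fgf9, Fgf1 and Fgf8, and last Fgf18, Fgf7 and Bmp7. The ranges of Bmp5 (49.2 and 35.3 FPKM) and Bmp6 (36.0 and 37.9 FPKM) overlapped, and so did that of Fgf1 (7.90 and 10.2 FPKM) with those of Fgf9 (10.6 and 8.15 FPKM) and Fgf8 (8.07 and 6.59 FPKM).

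In addition, Fgf1, Fgf7, Fgf10 and Wnt7a were at 1 FPKM or more in zygotes of both treatments. Wnt7a, a ligand of limb and uterus, was the highest Wnt gene there, with 1.19 and 0.96 FPKM in DMSO-treated zygotes. No Wnt gene had a mean of 1 FPKM in the DMSO groups of either 2-cell stage. Fgf18 and Fgf20 joined at early 2-cell, and Fgf4 at late 2-cell.

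Altogether 31 of the 52 genes reached a mean of 1 FPKM in some group and 21 in none. These 21 were Bmp1, Bmp3, Bmp10, Fgf2, Fgf3, Fgf5, Fgf12, Fgf14, Fgf17, Fgf21, Fgf23, Wnt1, Wnt2, Wnt2b, Wnt3, Wnt3a, Wnt4, Wnt5b, Wnt6, Wnt9a and Wnt10a. Their values in single libraries ran from 0 to 1.6 FPKM, the highest being that of Wnt2b in a late 2-cell library treated with A-485. Fgf14 had no count in any library, and 49 genes had at least 10 counts in some library.

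**Figure D1:**
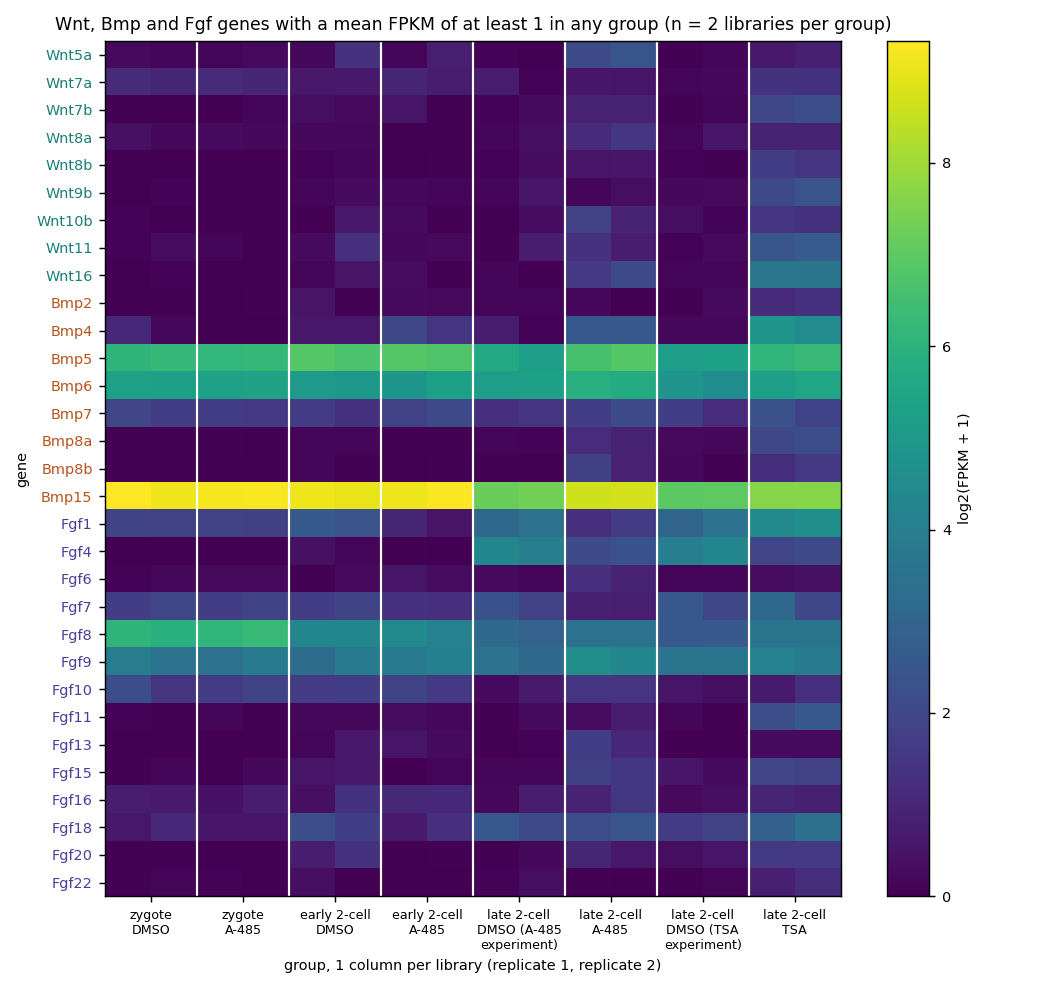
Heat map of log2(FPKM + 1) of the 31 genes that averaged 1 FPKM or more in some group, with 1 column per library and the 2 libraries of each of the 8 groups side by side. Bmp15 is the brightest row throughout, and the rows of Wnt16, Bmp8a, Bmp8b and Fgf15 are brightest in the A-485-treated and TSA-treated late 2-cell columns.

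For each comparison, a gene was called higher or lower when the quasi-likelihood F test of edgeR gave a Benjamini-Hochberg adjusted p under 0.05 over all genes tested, it changed at least 2-fold, and 1 of the groups averaged 1 FPKM or more. Changes are given as log2 fold changes of counts with a standard error. This error is the size of the change divided by the square root of the F statistic, so it is approximate where counts are few. They rest on 2 libraries against 2, and counts of the libraries of a group varied more than counting alone gives (chi-square per degree of freedom of 8.99 to 18).

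From zygote to early 2-cell in DMSO-treated embryos, 3 members were called higher and 1 lower. Of all 20106 genes tested, 11.2% were called higher and 14.9% lower, and 34 members were tested. Fgf8, a ligand of gastrulation and limb growth, had 67.4 and 60.4 FPKM in zygotes and 18.3 and 18.5 FPKM in early 2-cell embryos, and it fell by 1.71 ± 0.16 (SE; adjusted p = 1.29e-06). Fgf1, which binds all Fgf receptors and leaves the cell without a signal peptide, had 2.73 and 2.48 FPKM and then 5.22 and 4.29 FPKM, a rise of 1.14 ± 0.21 (adjusted p = 0.000476). The groups did not overlap for either gene.

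Fgf18, a ligand of cartilage and bone, had 0.52 and 1.09 FPKM in zygotes and 3.75 and 2.35 FPKM in early 2-cell embryos, a rise of 1.93 ± 0.59 (adjusted p = 0.0165). Fgf20, known from kidney and inner ear, went from 1 count over both zygote libraries to 18 and 45 counts, which is a ratio of CPM of 85.9, with a counting interval of 14.9 to 3448. The calls of Fgf1 and Fgf18 were lost without the early 2-cell replicate 1 (0.98 and 1.54), and that of Fgf18 also without the zygote replicate 1 (1.53). The share of counts from mitochondrially encoded genes was 0.955% and 1.06% in these zygotes and 2.49% and 2.27% in the early 2-cell embryos, and scaling to those genes shifted the expressed genes by -1.33 at the median and gave 1 member higher and 8 lower, with Fgf1 at -0.20 and Fgf18 at 0.58. Over all genes that scaling gave 1270 calls higher and 8196 lower in place of 2257 and 3002.

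From early to late 2-cell in DMSO-treated embryos of the A-485 experiment, 1 member was called higher and 5 lower, where 15.9% of 20326 genes were called higher and 8.92% lower. Fgf4 was at 0.33 and 0.08 FPKM at early 2-cell and at 18.4 and 15.0 FPKM at late 2-cell, a rise of 5.56 ± 0.48 (adjusted p = 2.29e-06). It had 2 counts over both DMSO-treated zygote libraries and 20 and 5 counts at early 2-cell, a ratio of CPM of 17.1 (counting interval 4.25 to 149). The late 2-cell DMSO group of the TSA experiment had 15.0 and 18.7 FPKM.

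The members that fell from early to late 2-cell had been present since the zygote, apart from Fgf20. Bmp15 had 540 and 514 FPKM and then 147 and 161 FPKM, and it fell by 1.78 ± 0.09 (adjusted p = 6.32e-08). Bmp5, a ligand of the skeleton, had 117 and 103 FPKM and then 49.2 and 35.3 FPKM, and it fell by 1.25 ± 0.17. Fgf10, the ligand of lung and limb buds, had 2.17 and 2.23 FPKM and then 0.22 and 0.58 FPKM, and it fell by 2.65 ± 0.43. For all of these the lowest early library was above the highest late one.

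Fgf8 had 8.07 and 6.59 FPKM at late 2-cell and fell by 1.15 ± 0.29, and Fgf20 had 0 and 0.16 FPKM and fell by 3.80 ± 1.28. The call of Bmp5 was lost without the late replicate 2 (-0.97), that of Fgf8 without the late replicate 1 (-0.98), and that of Fgf20 without the late replicate 1 (-2.79) or the early replicate 2 (-3.03). The late 2-cell DMSO groups of both experiments did not differ in any member by the same rule. Of 38 members tested 2 had an unadjusted p under 0.05, of 20647 genes 1.19% were called higher in the TSA experiment and 0.136% lower, and DESeq2 called no member either. One member, Bmp6, passed the adjusted p without a 2-fold difference (36.0 and 37.9 FPKM against 28.35 and 22.15 FPKM, -0.56 ± 0.11, adjusted p = 0.0199).

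**Figure D2:**
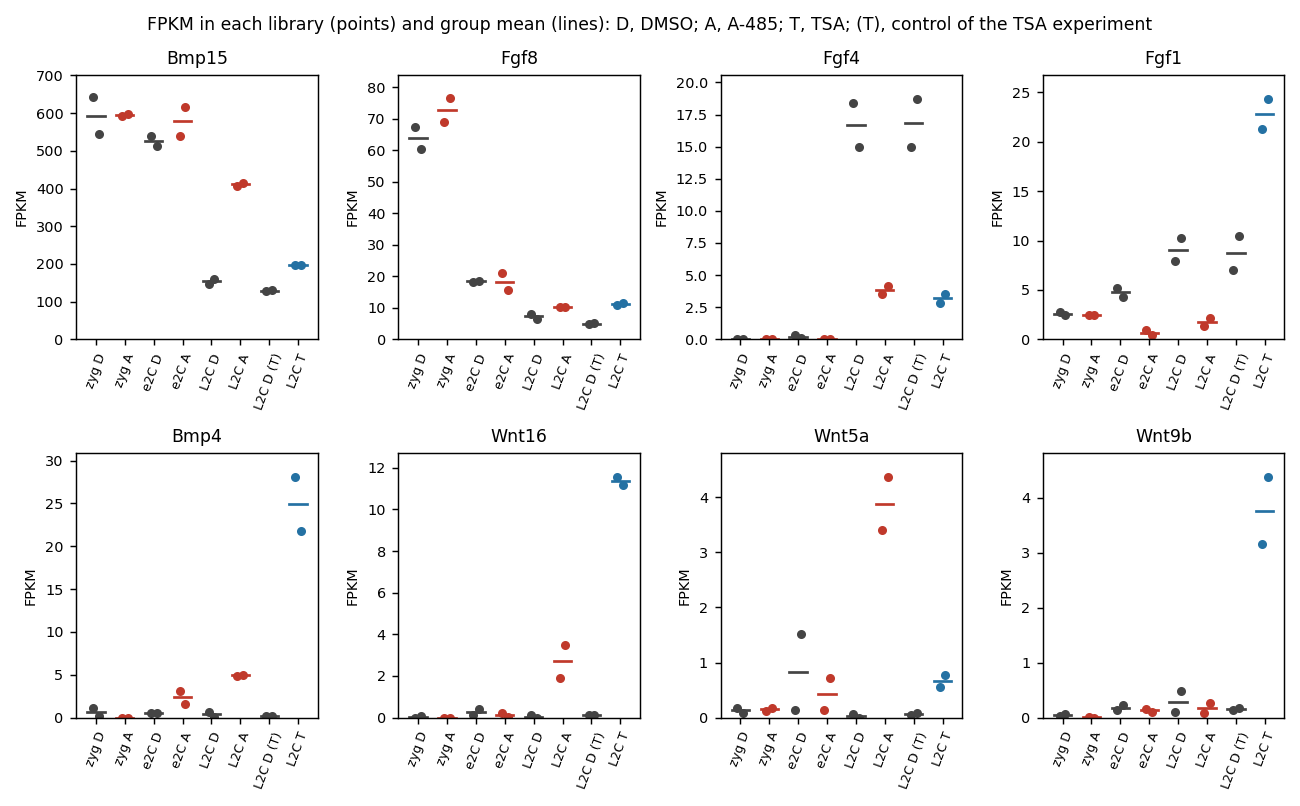
FPKM of 8 members in each of the 16 libraries (points, with lines for group means, n = 2). Bmp15 and Fgf8 are lower in late 2-cell than in zygote DMSO libraries, Fgf4 is highest in both late 2-cell DMSO groups, Bmp4, Wnt16 and Wnt9b are highest after TSA, and Wnt5a is highest in late 2-cell embryos after A-485.

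In zygotes, which were taken before the end of the A-485 window, the treatment changed no member by the rule. Of 24 members tested 2 had an unadjusted p under 0.05, none passed the adjustment, and DESeq2 called none. Over all 18258 genes the rule called 0.00548% higher and 0.0657% lower, which is 1 and 12 genes. The median log2 fold change was -0.03 over the members and -0.01 over all genes tested. Bmp4 had 11 and 6 counts in DMSO-treated zygotes and none in A-485-treated ones, which is at least 6.14-fold lower when both A-485 libraries together are set at 3 counts, and it did not pass the test.

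In early 2-cell embryos, A-485 treatment lowered 2 members and raised none. Here 7.90% of 20872 genes were called lower and 0.402% higher, and 37 members were tested, so 2 lower members is near what that share gives. Fgf1 was at 5.22 and 4.29 FPKM in DMSO-treated and at 0.93 and 0.41 FPKM in A-485-treated embryos, and it fell by 3.69 ± 0.28 (adjusted p = 1.64e-06). Fgf20 had 18 and 45 counts in DMSO-treated and 0 and 1 in A-485-treated embryos, which is a ratio of CPM of 67.2 in favour of DMSO (counting interval 11.6 to 2694). Its adjusted p was 0.0105, and it was 0.163 without the DMSO replicate 2. Both genes are among the 3 called higher from zygote to early 2-cell, a comparison that shares the early 2-cell DMSO libraries with this one.

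Members abundant in the zygote were not called in these embryos. Bmp15 had 540 and 616 FPKM after A-485 against 540 and 514 FPKM, Bmp5 had 115 and 106 FPKM against 117 and 103 FPKM, and Fgf8 had 21.02 and 15.6 FPKM against 18.3 and 18.5 FPKM, so that the groups overlapped for Bmp5 and Fgf8. For Bmp15 the A-485 libraries lay at and above the higher DMSO library (0.15 ± 0.07, adjusted p = 0.186). The median over the tested members was 0.02 and over all genes 0.00. In the same libraries the 6 markers of 2-cell embryos summed to 10.2 to 12.8 FPKM after A-485 and to 358 to 420 FPKM with DMSO.

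In late 2-cell embryos, A-485 treatment raised 13 members and lowered 3. Of all 22822 genes tested 10.5% were called higher and 16.8% lower, and 43 members were tested. A call needs a mean of 1 FPKM in 1 of the groups. In these controls 10 of 52 members had that, against 48.6% of protein-coding genes. Most members could thus be called only by a rise, so the shares of members and of all genes are not like for like. The median log2 fold change was 2.08 over the tested members and 0.28 over all genes. These medians have the same limit, since members with few or no control counts were tested only through the treated libraries. Members at a mean of 1 FPKM rose from 10 to 22 of 52 (42.3%), while protein-coding genes at that level rose from 48.6% to 53.9%. Called higher were 5 of 11 Bmp, 4 of 19 Wnt and 4 of 22 Fgf genes, and all members called lower were Fgf genes. No Wnt gene and, of the Bmp genes, only Bmp5, Bmp6, Bmp7 and Bmp15 averaged 1 FPKM in these controls. The families can therefore not be compared by their falls.

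Bmp4, which induces mesoderm and germ cells in the gastrulating embryo, had 0.69 and 0.07 FPKM (5 and 2 counts) in DMSO-treated and 4.91 and 4.98 FPKM (96 and 85 counts) in A-485-treated embryos. It rose by 5.05 ± 0.72 (adjusted p = 0.000142) on counts, while the log2 ratio of its mean FPKM was 3.70, and the cause of this gap was not tested. Bmp8a and Bmp8b, paralogs with a part in germ cell formation, had 0.13 and 0.06 FPKM and 0.02 and 0.02 FPKM with DMSO. After A-485 they had 1.29 and 0.92 FPKM and 2.38 and 0.82 FPKM. Bmp8a rose by 3.44 ± 1.03, and Bmp8b had a ratio of CPM of 58.6 (counting interval 15.7 to 493).

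Bmp15 and Bmp5, both abundant in zygotes, were higher too. Bmp15 had 408 and 415 FPKM after A-485, between the level of early 2-cell and that of late 2-cell DMSO embryos, and it rose by 1.22 ± 0.09 against the latter (adjusted p = 4.81e-07). Bmp5 had 96.0 and 117 FPKM against 49.2 and 35.3 FPKM, a rise of 1.06 ± 0.17. With DMSO, Bmp5 was itself higher at early 2-cell (116.74 and 103.32 FPKM) than in zygotes (67.45 and 73.44 FPKM). Of other members present in zygotes, Bmp6 (0.49 ± 0.12) and Fgf9 (0.93 ± 0.21) passed the adjusted p after A-485 under 2-fold, and Fgf8 and Bmp7 did not pass it. In the same libraries the 8 maternal markers summed to 1020 to 1056 FPKM against 641 to 689 FPKM, and the part of maternal RNA in these changes was not tested.

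Among the Wnt genes called, Wnt5a had the largest fold change. This ligand of limb and body axis elongation, which mostly acts apart from β-catenin, had 0.06 and 0 FPKM (5 and 0 counts) with DMSO and 3.41 and 4.36 FPKM (225 and 196 counts) with A-485, and it rose by 6.74 ± 0.72 (adjusted p = 1.29e-05). Wnt16, known from bone, had 0.1 and 0 FPKM and then 1.92 and 3.50 FPKM, a rise of 4.77 ± 0.99, while the log2 ratio of its mean FPKM was 5.76. Wnt10b, which favours bone over fat, had 0 and 0.23 FPKM and then 2.55 and 0.86 FPKM (3.74 ± 1.14). Wnt8a, a ligand of the primitive streak, had 0.08 and 0.27 FPKM and then 1.24 and 1.79 FPKM (2.90 ± 0.97). The groups did not overlap for any of these 4.

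Of the Fgf genes, Fgf15, the hormone that lowers bile acid synthesis, had 0.08 and 0.10 FPKM with DMSO and 2.44 and 1.87 FPKM with A-485, a rise of 4.31 ± 0.87. Fgf13, an intracellular partner of sodium channels, had 0 and 3 counts and then 50 and 35 counts (2.34 and 1.03 FPKM), which is a ratio of CPM of 42.6 (counting interval 14.1 to 211). Fgf6, a ligand of muscle, had 0.17 and 0.08 FPKM and then 1.43 and 0.89 FPKM (3.00 ± 0.68). Fgf10 had 1.67 and 1.67 FPKM against 0.22 and 0.58 FPKM (2.1 ± 0.56), which is below its level at early 2-cell.

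The members that fell were Fgf4, Fgf1 and Fgf7. Fgf4 had 3.50 and 4.13 FPKM after A-485 against 18.4 and 15.0 FPKM, and it fell by 1.62 ± 0.29 (adjusted p = 0.000885). Fgf1 had 1.39 and 2.19 FPKM against 7.90 and 10.2 FPKM and fell by 2.51 ± 0.29 (adjusted p = 2.39e-05). Fgf7, the keratinocyte growth factor, had 0.75 and 0.71 FPKM against 4.16 and 2.46 FPKM and fell by 2.28 ± 0.50. In all of them every A-485 library was below every DMSO library. In the same libraries the markers of 2-cell embryos summed to 57.9 to 60.8 FPKM against 224 to 239 FPKM. Of these 6 markers 5 were called lower, while Duxf3 had 6.04 and 9.56 FPKM against 3.22 and 4.29 FPKM.

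Some of these 13 rises depend on the scaling or on 1 library. Mitochondrially encoded genes took 5.43% and 5.35% of counts after A-485 and 2.44% and 2.35% with DMSO, and scaling to them shifted the expressed genes by -0.98 at the median. This left 7 members called higher and 3 lower, and Bmp5 (0.09), Bmp8a (2.50), Bmp15 (0.24), Fgf10 (1.10), Wnt8a (1.91) and Wnt10b (2.73) lost the call. Over all genes it gave 1177 higher and 6874 lower in place of 2406 and 3824. Without single libraries the calls of Bmp5 (0.82 without DMSO replicate 2), Fgf10 (1.71 without DMSO replicate 1) and Wnt10b (2.76 without A-485 replicate 1) were lost, as were those of Bmp8a (3.03 to 3.52 without DMSO replicate 2 or either A-485 library) and Wnt8a (2.34 to 3.16 without DMSO replicate 1 or either A-485 library).

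Markers of other cells were looked up in the same libraries. The 7 fibroblast markers summed to 14.3 to 16.7 FPKM after A-485 and to 0.13 to 0.64 FPKM with DMSO, almost all of it Pdgfra at 13.9 and 15.9 FPKM, a receptor that early embryos also use, while Dcn, Lum and Col1a2 were at 0. The cumulus and granulosa cell markers summed to 4.45 to 4.68 FPKM after A-485 and to 7.85 to 12.5 FPKM with DMSO, and of 7 tested 2 were called higher and 1 lower, with a median log2 fold change of 2.36. Amhr2 had 0.65 and 0.04 FPKM after A-485 against 6.95 and 10.7 FPKM, while Has2 had 1.13 and 1.03 FPKM against 0.17 and 0.19 FPKM and Foxl2 had 1.47 and 1.63 FPKM against 0 and 0.09 FPKM. The part of either in the changes of members was not tested.

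**Figure D3:**
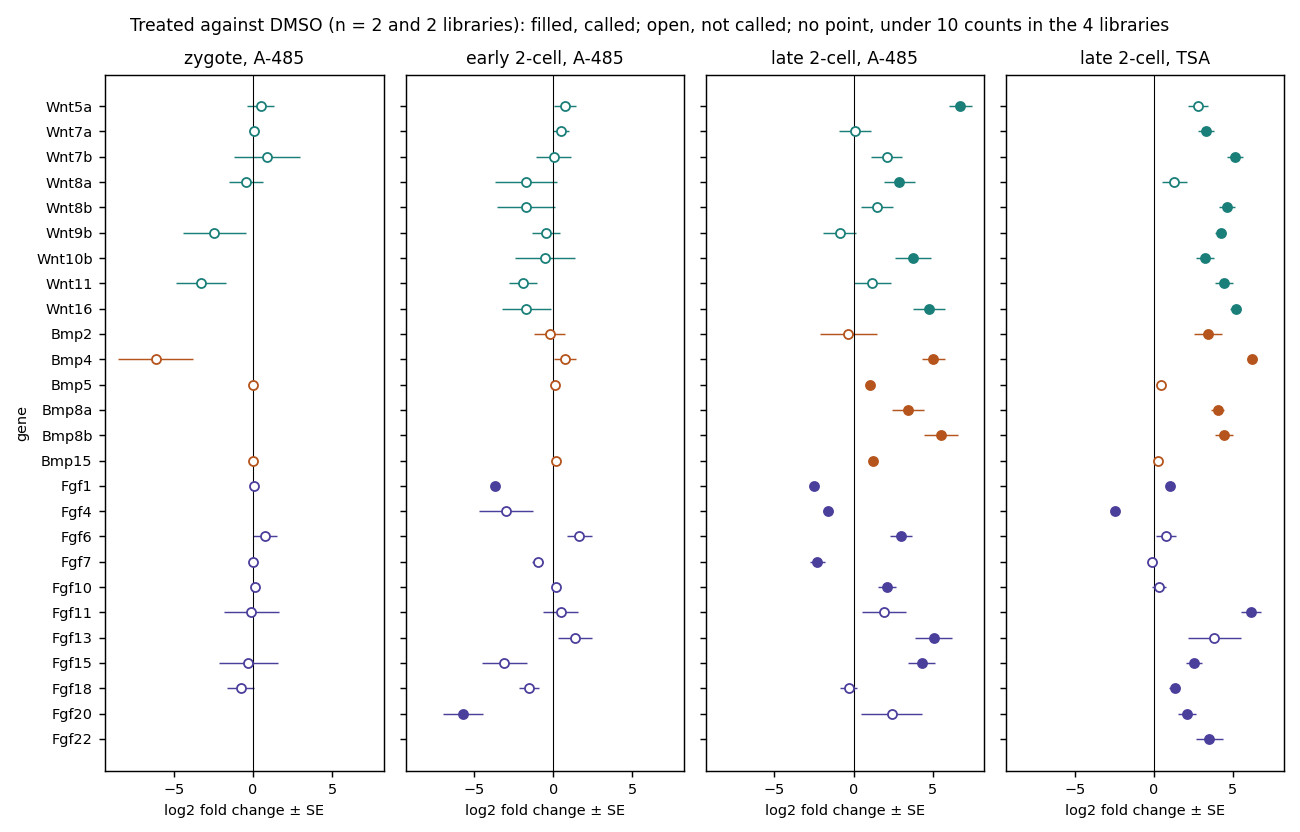
Log2 fold changes with standard errors (treated against DMSO, n = 2 and 2 libraries) of the 26 members called in any treatment comparison. Filled points were called, open points were not, and a gene without a point had under 10 counts in the libraries compared. No point is filled in zygotes, and at late 2-cell most filled points lie above 0 while Fgf4 lies below 0 after both inhibitors.

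TSA treatment raised 17 members at late 2-cell and lowered 1. Of all 23429 genes tested 13.8% were called higher and 13.9% lower, and 45 members were tested. Most members were under 1 FPKM in these controls too and could be called only by a rise, so these shares are not like for like. The median log2 fold change was 2.75 over the tested members and 0.13 over all genes. Members with few or no control counts were again tested only through the treated libraries, so the medians are not like for like either. Members at a mean of 1 FPKM rose from 10 to 25 of 52 (48.1%), against 48.2% and 57.3% of protein-coding genes. Called higher were 7 Wnt, 4 Bmp and 6 Fgf genes.

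Bmp4 reached the highest level of all members that rose from near 0. It had 0.15 and 0.15 FPKM (6 and 7 counts) with DMSO and 28.0 and 21.8 FPKM (518 and 408 counts) with TSA, a rise of 6.19 ± 0.33 (adjusted p = 1.25e-07). The log2 ratio of its mean FPKM was 7.38, and the cause of this gap was not tested. Bmp8a had 0.17 and 0.14 FPKM and then 2.92 and 3.66 FPKM (4.03 ± 0.43), and Bmp8b had 0.14 and 0.03 FPKM and then 1.31 and 1.96 FPKM (4.44 ± 0.60). Bmp2, a ligand of heart and bone, had 0 and 0.2 FPKM and then 1.24 and 1.52 FPKM (3.43 ± 0.86), and DESeq2 did not call it (adjusted p = 0.258). All 4 were above their controls in both libraries.

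Of the Wnt genes, Wnt16 rose most in FPKM, from 0.1 and 0.12 FPKM to 11.5 and 11.2 FPKM (5.17 ± 0.36, adjusted p = 9.25e-07). Wnt11, a ligand of kidney branching and heart, went from 0.06 and 0.17 FPKM to 4.48 and 5.57 FPKM (4.42 ± 0.57), and Wnt9b, which induces kidney tubules, from 0.14 and 0.18 FPKM to 3.15 and 4.37 FPKM (4.22 ± 0.33). The log2 ratios of mean FPKM were 6.69 for Wnt16 and 5.45 for Wnt11, above the changes fitted on counts. The cause of these gaps was not tested. In counts Wnt16 had 251 and 273 with TSA, and Wnt9b had 257 and 372. Wnt7b, known from lung and brain vessels, went from 0.03 and 0.11 FPKM to 2.93 and 3.69 FPKM (5.16 ± 0.51). The forebrain ligand Wnt8b went from 0.07 and 0.05 FPKM to 2.20 and 1.71 FPKM (4.65 ± 0.51). Wnt7a had 1.60 and 1.56 FPKM against 0.09 and 0.16 FPKM (3.30 ± 0.48), and Wnt10b 1.68 and 1.52 FPKM against 0.27 and 0.06 FPKM (3.21 ± 0.57). No TSA library overlapped with a control library for these 7 genes.

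Fgf11, an intracellular member, had 0.1 and 0 FPKM with DMSO and 3.66 and 5.08 FPKM with TSA, a rise of 6.16 ± 0.64 (adjusted p = 1.87e-05). Fgf1, already present, went from 6.99 and 10.5 FPKM to 21.3 and 24.3 FPKM (1.03 ± 0.17). Fgf15 had 2.85 and 2.47 FPKM against 0.48 and 0.20 FPKM (2.57 ± 0.50), and Fgf22, which organizes synapses, 0.74 and 1.36 FPKM against 0.04 and 0.10 FPKM (3.52 ± 0.86). Fgf18 went from 2.11 and 2.59 FPKM to 6.44 and 9.79 FPKM (1.33 ± 0.35), and Fgf20 from 0.26 and 0.46 FPKM to 2.03 and 1.89 FPKM (2.09 ± 0.55). In each of these 6 the lowest TSA library was above the highest control.

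Fgf4 was the member that fell, from 15.0 and 18.7 FPKM to 2.85 and 3.53 FPKM, by 2.48 ± 0.18 (adjusted p = 1.01e-06). Here the sum of the markers of 2-cell embryos was higher after TSA (346 to 404 FPKM against 143 to 168 FPKM), while it was lower after A-485. The fibroblast markers summed to 9.70 to 10.8 FPKM after TSA against 1.09 to 1.98 FPKM, mainly Pdgfra, Thy1 and Col1a1, with Dcn and Lum at 0. Mitochondrially encoded genes took 3.66% and 3.72% of counts against 2.71% and 2.39%.

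The calls that depended on 1 library after TSA were all of Fgf genes. Fgf1 was at 0.76 without DMSO replicate 1 and at 0.94 without TSA replicate 2, Fgf18 at 1.00 and Fgf22 at 3.26 without TSA replicate 2, and Fgf20 at 2.06 without TSA replicate 1. Scaling to library totals shifted the expressed genes by 0.36 at the median and gave 4108 genes higher and 2384 lower in place of 3237 and 3247, with 18 members higher and 1 lower. With mitochondrially encoded genes as the scale the shift was -0.18, and Fgf1 (0.83) lost its call. In the fit of all 16 libraries Fgf18, Fgf20 and Fgf22 did (adjusted p of 0.0526, 0.150 and 0.105).

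Members under the level of 1 FPKM moved as well. After A-485, Wnt1 had 27 and 17 counts against 0 and 1, which is a ratio of CPM of 66.1 (counting interval 11.3 to 2671), and Fgf23 and Wnt6 passed the adjusted p with 28 counts each against none, at least 14.0-fold higher when both control libraries together are set at 3 counts. After TSA, Bmp10 and Wnt4 passed it with 34 and 22 counts against none (at least 15.2-fold and 9.82-fold higher by the same floor), and Fgf3 with 70 counts against 2 (ratio of CPM 46.9, counting interval 12.5 to 395). Wnt3, Wnt2b, Fgf5 and Wnt5a also passed it after TSA (4.24 ± 0.95, 2.21 ± 0.57, 3.11 ± 0.81 and 2.79 ± 0.61). Their mean FPKM with TSA was 0.86, 0.92, 0.75 and 0.67.

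Both inhibitors raised 6 members: Bmp4, Bmp8a, Bmp8b, Fgf15, Wnt10b and Wnt16. This is 46.2% of the 13 members called after A-485 and 35.3% of the 17 called after TSA, and the comparisons share no library. Of all genes called higher, 780 were called after both, which is 32.4% of those after A-485 and 24.1% of those after TSA. Fgf4 was lowered by both. Bmp15 and Bmp5 were raised at least 2-fold after A-485, while their changes after TSA were 0.26 ± 0.06 and 0.46 ± 0.08. The difference of effects (TSA minus A-485) was -0.86 ± 0.11 for Bmp15 (edgeR adjusted p = 1.37e-05) and -0.49 ± 0.21 for Bmp5 (edgeR adjusted p = 0.122), under the size of 1 that a call needed. The agents, their time windows and the experiments differ together and cannot be told apart.

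The difference of both effects was tested over the 8 late 2-cell libraries. TSA had the higher effect for 6 members and the lower for 1, where 11.0% of 26554 genes were called higher and 2.98% lower at an adjusted p under 0.05 and a difference of at least 1. Fgf1 was lowered by A-485 and raised by TSA, a difference of 3.64 ± 0.32 (adjusted p = 2.06e-07). Wnt9b had 0.09 and 0.26 FPKM with A-485 against 0.10 and 0.48 FPKM in its controls, and 3.15 and 4.37 FPKM with TSA, a difference of 5.17 ± 0.89 (adjusted p = 0.00041). Fgf7 was lowered by A-485 alone of the treatments, with 7.62 and 3.10 FPKM after TSA against 4.72 and 2.94 FPKM, and the difference was 2.29 ± 0.54.

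Wnt5a had the higher effect with A-485. It had 0.56 and 0.78 FPKM after TSA against 0.04 and 0.08 FPKM, and the difference was -3.85 ± 1.00 (adjusted p = 0.0114). Fgf11 (4.33 ± 1.33), Wnt7b (3.15 ± 1.00) and Wnt8b (3.27 ± 1.03) had the higher effect with TSA. These calls were less firm. That of Wnt5a was lost without DMSO replicate 2 of the TSA experiment (-3.14). That of Fgf11 was lost without A-485 replicate 1, TSA replicate 2 or DMSO replicate 2 of either experiment (2.02 to 4.01), that of Wnt7b without A-485 replicate 1, DMSO replicate 2 of the A-485 experiment, DMSO replicate 1 of the TSA experiment or either TSA library (2.16 to 3.20), and that of Wnt8b without any library but DMSO replicate 1 of the A-485 experiment (2.24 to 3.76).

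**Figure D4:**
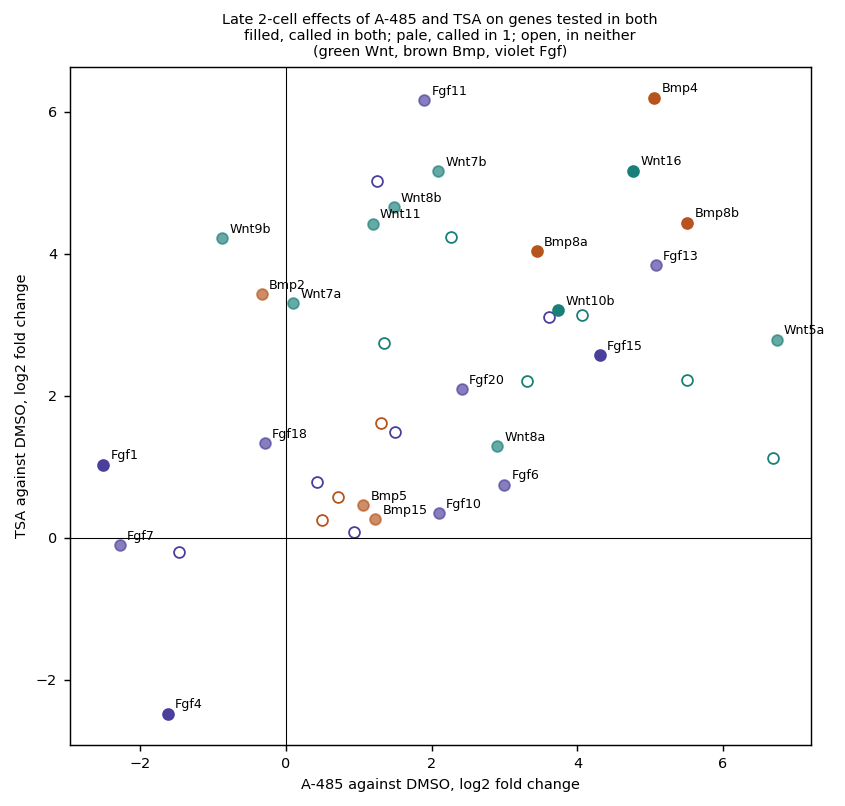
Log2 fold change after A-485 (x axis) and after TSA (y axis) in late 2-cell embryos, for the 40 members tested in both comparisons, filled where called in both, pale where called in 1 and open where in neither. Most points lie right of and above 0, Fgf4 lies at -1.62 and -2.48, Fgf1 at -2.51 and 1.03, and Wnt5a at 6.74 and 2.79.

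The effect of A-485 also differed between the 2-cell stages, of which the late one was reached after A-485 was washed off. Of 25141 genes tested over 8 libraries, 8.39% had a higher and 7.46% a lower effect at late than at early 2-cell by the same rule, and 11 members had a higher one and none a lower one. Of the 48 members tested, some passed the filter of 10 counts mainly through the late A-485 libraries. Bmp8b, for example, had 46 and 32 counts there, and 1 and 1 in the late controls. Such members could hardly be called lower, so these shares are not like for like. Wnt5a had 16 and 71 counts after A-485 at early 2-cell against 21 and 28 counts, and 225 and 196 against 5 and 0 at late 2-cell (difference 6.11 ± 1.01, adjusted p = 5.93e-05). The difference was 1.15 ± 0.11 for Bmp15 (adjusted p = 2.49e-08) and 4.42 ± 1.03 for Bmp4 (adjusted p = 0.00252). At early 2-cell Bmp4 had 3.08 and 1.63 FPKM after A-485 (31 and 28 counts) against 0.52 and 0.51 FPKM (16 and 18 counts), groups that did not overlap, and its change there was 0.72 ± 0.69 (adjusted p = 0.59). The other 8 were Bmp5, Bmp8a, Bmp8b, Fgf1, Fgf10, Fgf15, Fgf20 and Wnt16. Scaling to mitochondrially encoded genes gave 6 higher and 1 lower, with Bmp5 at -0.0069, Bmp15 at 0.09 and Fgf1 at 0.19.

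ATAC-seq peaks at the starts of the members were scarcer than at those of all protein-coding genes. A peak lay within 1 kb of a transcript start of 5 members (9.62%) in late 1-cell DMSO embryos, of 3 (5.77%) after A-485 at that stage, of 6 (11.5%) in early 2-cell DMSO embryos and of 15 (28.8%) after A-485 there. Of protein-coding genes 26.2%, 24.7%, 31.8% and 41.0% had such a peak. Each list holds the peaks that the authors found reproducible over both replicates, so the counts have no spread between replicates. The lists hold 10214, 7094, 27693 and 13712 peaks.

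At early 2-cell, 12 members (23.1%) had a peak within 1 kb of a start after A-485 and not with DMSO: Bmp4, Bmp8a, Fgf9, Fgf20, Wnt3, Wnt3a, Wnt5a, Wnt6, Wnt7a, Wnt7b, Wnt9b and Wnt16. This division was made after the lists had been seen, and 15.0% of protein-coding genes fell on the same side of it. Of the 24 members that either inhibitor raised at late 2-cell, 8 are among the 12, and of the other 28 members 4 are. This split was not counted over all protein-coding genes, and no ATAC list was made after TSA. No link between these peaks and the RNA can therefore be read from it. Fgf4, Fgf17 and Wnt11 had a peak with DMSO and not after A-485, and Bmp1, Bmp6 and Fgf18 had one in both lists. The peak of Fgf4 (chr7:144847170-144848198) was at its upstream GENCODE start at 144847367. It was not at the RefSeq start, whose window is chr7:144861136-144861385. Bmp6 was the only member with a peak in all 4 lists. With the 7094 strongest peaks of each list, 2 members (3.85%) had a peak in the early 2-cell DMSO list and 4 (7.69%) in the A-485 list, where 14.3% and 27.8% of protein-coding genes did.

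**Figure D5:**
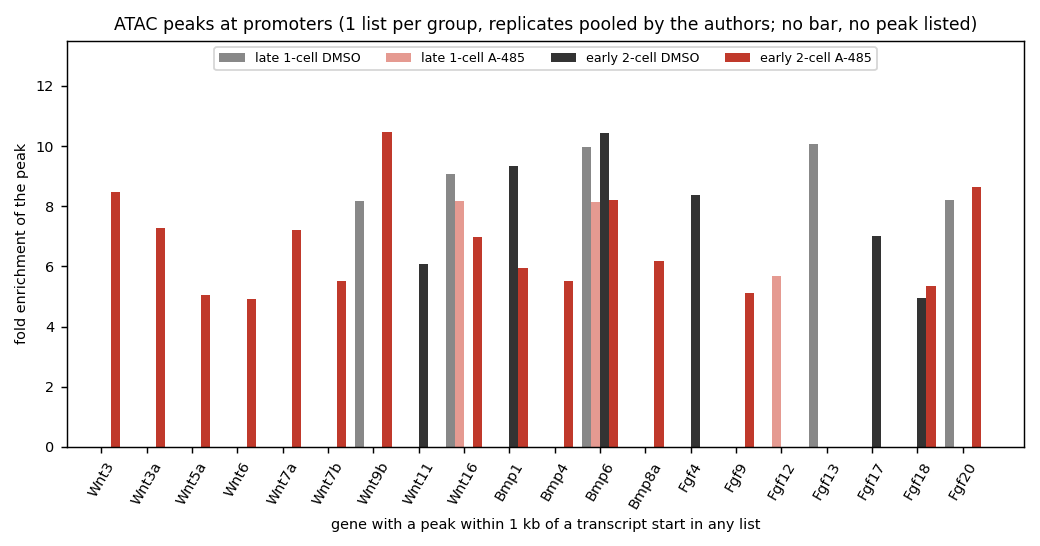
Fold enrichment of the highest ATAC peak within 1 kb of a transcript start, for the 20 members with such a peak in any of the 4 lists (no bar, no peak listed). Most bars are of the early 2-cell A-485 list, 12 of whose genes have no early 2-cell DMSO bar, and Bmp6 has a bar for every list.

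Peaks farther from the starts were counted as well, a count made after the lists had been seen. Within 50 kb of the starts of Fgf4 lay 9 peaks in the early 2-cell DMSO list and 0 in each of the other lists, and Fgf22 had 7 in the DMSO and 0 in the A-485 early 2-cell list. The peaks around the neighbours of Fgf4, Fgf3 (6 and 0 in the early 2-cell lists) and Fgf15 (12 and 2), are partly the same ones. Over all members, 116 distinct peaks of the early 2-cell DMSO list lay within 50 kb of a start, and 30 of them (25.9%) overlapped a peak of the A-485 list, against 21.7% of all peaks of that list. Median counts of nearby peaks were 1 for members and 2 for protein-coding genes in the early 2-cell DMSO list, and 1.5 and 1 in the A-485 list.

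The promoters that bear on these results are shown here as the 250 bases before a start, on the strand of the gene, from GRCm38.p6. Fgf4 is shown at its RefSeq start (window chr7:144861136-144861385, plus strand), which is in no peak. Bmp4 (window chr14:46390670-46390919, minus strand), Wnt16 (chr6:22287977-22288226, plus strand) and Wnt9b (chr11:103749822-103750071, minus strand) are shown as examples of members with a start in a peak after A-485 at early 2-cell and not with DMSO. Bmp8a, Wnt3, Wnt5a and Wnt7b met this too and are not shown. Bmp15 (chrX:6320725-6320974, minus strand) is shown as the most abundant member, with no peak within 50 kb in any list. No annotated exon lies in these windows. Capitals mark, on either strand, TATAAA, the core of a TATA box. They also mark GGGCGG, known as the GC box. The letters CCAAT, where the factor NF-Y binds, are marked too. So are those of an E-box, written CACGTG. A half-site of nuclear receptors was searched as AAGGTCA. Last, GGATTA, which some homeodomain proteins bind, was searched. Where such matches overlap, the capitals run together.
Fgf4: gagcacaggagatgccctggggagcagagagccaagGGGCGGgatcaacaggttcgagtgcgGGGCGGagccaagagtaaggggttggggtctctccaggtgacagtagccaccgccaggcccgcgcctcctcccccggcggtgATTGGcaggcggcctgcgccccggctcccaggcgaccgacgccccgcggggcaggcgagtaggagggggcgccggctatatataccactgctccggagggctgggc
Bmp4: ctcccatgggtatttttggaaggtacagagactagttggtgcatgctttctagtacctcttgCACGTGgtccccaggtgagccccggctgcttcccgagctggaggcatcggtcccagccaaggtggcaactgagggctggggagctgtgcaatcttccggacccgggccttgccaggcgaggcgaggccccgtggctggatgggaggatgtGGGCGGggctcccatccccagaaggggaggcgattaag
Wnt16: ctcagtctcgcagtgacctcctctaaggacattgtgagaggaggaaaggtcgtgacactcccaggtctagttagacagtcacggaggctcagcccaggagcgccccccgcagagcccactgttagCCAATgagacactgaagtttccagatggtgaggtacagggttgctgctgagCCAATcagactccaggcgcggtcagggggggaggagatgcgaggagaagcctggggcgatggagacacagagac
Wnt9b: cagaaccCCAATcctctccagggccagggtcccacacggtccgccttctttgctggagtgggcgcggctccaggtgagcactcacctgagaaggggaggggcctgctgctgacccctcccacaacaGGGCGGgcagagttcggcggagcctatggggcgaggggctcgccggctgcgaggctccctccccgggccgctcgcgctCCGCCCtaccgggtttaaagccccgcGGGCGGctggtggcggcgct
Bmp15: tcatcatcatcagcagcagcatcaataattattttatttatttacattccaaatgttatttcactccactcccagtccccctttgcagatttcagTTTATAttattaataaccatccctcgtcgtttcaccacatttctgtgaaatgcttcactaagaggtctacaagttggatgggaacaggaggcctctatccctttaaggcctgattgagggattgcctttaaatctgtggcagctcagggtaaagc

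The window of Fgf4 has 21 CpG and 71.2% G and C and holds the letters of the GC box and the CCAAT box. Bmp15 has 2 CpG and holds the TATA box letters, while Bmp4 (11 CpG), Wnt16 (9 CpG) and Wnt9b (22 CpG) do not hold it. Of the 52 members 38 were matched to 47 RefSeq windows, in which the median number of CpG was 17, against 6 in all 32851 windows.

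Among the windows of members, the GC box letters were found in 66.0%, those of the CCAAT box in 29.8%, of the TATA box in 6.38%, of the E-box in 8.51%, of the homeodomain site in 2.13% and of the half-site in none. Among all windows the shares were 32.7%, 33.8%, 12.4%, 6.02%, 6.25% and 4.08% in the same order. These are matches of letters, not sites, and the letters searched were chosen after windows of members had been looked at. The starts of Wnt16 and Wnt9b were also in a peak at late 1-cell with DMSO (fold enrichment 9.09 and 8.16), and their peaks after A-485 at early 2-cell had a fold enrichment of 6.98 and 10.5. Bmp4 had 5.51 there.

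The receptors and other genes of the pathways were taken from lists by role. In zygotes none of them was called after A-485. At early 2-cell, where 7.90% of genes were lower after A-485, 3 of 15 Wnt receptors fell: Fzd7 had 1.29 and 1.12 FPKM against 10.7 and 8.58 FPKM (-2.99 ± 0.20), and Fzd5 and Fzd2 changed by -2.68 ± 0.27 and -3.15 ± 0.65. Of 7 Fgf receptors and co-receptors Fgfr3 fell (-3.35 ± 0.42). Of the 8 Bmp target genes 3 fell, namely Id1 (-4.50 ± 1.02), the feedback inhibitor Smad7 (-2.98 ± 0.24) and Msx1 (-2.27 ± 0.34). The cyclin Ccnd1, a Wnt target (-2.62 ± 0.29), and Spry2, a feedback inhibitor of Fgf signalling (-3.03 ± 0.33), fell as well.

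Among the 9 inhibitors of Bmp, Bambi fell at early 2-cell (-2.14 ± 0.22) and the binding protein Fst rose (3.61 ± 1.03). Spred3, another brake on Fgf signalling, rose (1.67 ± 0.47). No gene of Wnt secretion, Wnt inhibition, or intracellular transduction of any of the pathways was called at that stage.

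At late 2-cell after A-485, where 10.5% of all genes were called higher and 16.8% lower, 4 of 9 Bmp inhibitors rose. Fst had 9.71 and 5.45 FPKM against 0 and 0.06 FPKM, and Grem1 and Chrd, which were listed at 0 in both controls, had 1.50 and 1.79 FPKM and 1.54 and 1.15 FPKM. Of 8 Bmp targets 4 rose and 1 fell: Msx2 (3.69 ± 1.10) and Id2 (1.95 ± 0.30) were higher, and Smad7 had 10.2 and 7.29 FPKM against 92.4 and 89.5 FPKM (-3.42 ± 0.16). Of 7 Bmp receptors Acvr2a (-2.03 ± 0.42) and Bmpr1a (-1.01 ± 0.30) fell, and of 4 Smads that transmit the signal Smad9 (1.52 ± 0.47) and Smad1 (1.22 ± 0.21) rose.

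In the Wnt pathway, 1 of 15 receptors rose and 3 fell after A-485 at late 2-cell, near those shares. Fzd7 had 4.72 and 3.85 FPKM against 28.25 and 28.8 FPKM (-2.93 ± 0.17), Fzd9 changed by -2.33 ± 0.46, and Fzd6 went from 0 in both controls to 2.02 and 2.56 FPKM. Of 12 transduction genes 3 rose and 2 fell, among them Lef1 with 144 and 156 FPKM against 23.2 and 21.03 FPKM (2.49 ± 0.14), Ctnnb1, the gene of β-catenin (-2.44 ± 0.14), and Dvl1 (-2.18 ± 0.47). The inhibitor Sfrp1 (2.21 ± 0.51) and Wls, which carries Wnt proteins to the membrane (1.36 ± 0.44), rose. None of the 8 Wnt targets was called.

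In the Fgf pathway, 1 of 12 transduction genes rose and 4 fell after A-485 at late 2-cell. The kinase gene Map2k2 had 1.83 and 4.02 FPKM against 51.5 and 48.7 FPKM (-4.25 ± 0.28), and Sos1 (-2.40 ± 0.19) and Grb2 (-1.71 ± 0.19) fell. Of 9 target and feedback genes found, Etv5 (-2.48 ± 0.19) and Spry2 (-2.16 ± 0.26) fell and Dusp6 rose (1.65 ± 0.31). Of 7 receptors Fgfrl1 fell (-3.01 ± 0.64).

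After TSA, where 13.8% of all genes were called higher and 13.9% lower, 4 of 15 Wnt receptors rose and 1 fell, with Fzd10 (5.78 ± 0.72), Ror2 (2.87 ± 0.52) and Fzd8 (2.12 ± 0.33) the most changed. Of 12 Wnt inhibitors 3 rose: Sfrp2 (6.29 ± 0.99), Sfrp1 (3.77 ± 0.20) and Dkk3 (3.14 ± 0.28). Porcn, which adds the lipid of Wnt proteins, rose (3.18 ± 0.83). Near those shares, of 12 transduction genes 2 rose, Tcf7l1 (2.96 ± 0.55) and Tcf7l2 (2.83 ± 0.23), and 2 fell, among them Ctnnb1 (-1.96 ± 0.09).

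Of 8 Wnt targets 3 rose and 1 fell after TSA, and Sp5 (4.36 ± 0.36), Nkd2 (4.39 ± 0.31) and Nkd1 (1.21 ± 0.15) were the most changed. Of 8 Bmp targets 6 rose and 1 fell. Smad6 and Msx2, listed at 0 in both controls, had 2.55 and 1.89 FPKM and 1.32 and 2.06 FPKM, and Id3 rose by 3.38 ± 0.59. Of 7 Bmp receptors Acvrl1 rose (2.60 ± 0.33) and Bmpr1a fell (-1.68 ± 0.18), and of 9 Bmp inhibitors Chrdl2 (3.04 ± 0.35) and Bambi (1.22 ± 0.14) rose.

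Of 7 Fgf receptors and co-receptors 2 rose after TSA and 1 fell: Fgfr3 had 5.69 and 5.56 FPKM against 0.45 and 0.12 FPKM (4.67 ± 0.31), Fgfr2 rose by 2.22 ± 0.16 and Klb fell by 1.71 ± 0.41. Sos1 (-2.79 ± 0.10), Map2k2 (-1.31 ± 0.10) and Grb2 (-1.04 ± 0.12) fell among the 12 transduction genes. Spry2 fell (-2.77 ± 0.19) and Dusp6 rose (2.41 ± 0.17), as both did after A-485.

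Several members share transcribed sequence with a gene on the other strand. The kit keeps the strand, and whether the counting used it is not given in the sources used here. The share of exonic bases that overlap was 46.7% for Bmp5 (with Gm26903), 24.9% for Fgf15 (with Gm26793), 12.0% for Fgf20 (with Micu3), 9.44% for Fgf2 (with Nudt6) and 8.80% for Wnt11 (with Gm8398), and it was lower for Bmp4, Bmp6, Bmp8b, Fgf10, Fgf14, Fgf22, Wnt5a and Wnt7b. Reads of the near-identical Bmp8a and Bmp8b were split by RSEM with a posterior SD of at most 1.26% and 1.75% of the count.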

How the data were processed

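Total RNA-seq (SMART-Seq Stranded) was analysed in 16 libraries of 8 groups of 2. Per the submitters' processing notes and the methods, the authors trimmed reads with Trimmomatic 0.39, aligned them to GRCm38 with STAR 2.7.8a and quantified genes with RSEM 1.3.1, and deposited expected counts, FPKM and the posterior SD of each count (a signal that is never negative). ATAC reads went through the ENCODE pipeline 2.1.2, and the authors deposited 1 list of reproducible peaks per group with a score, a fold enrichment (a ratio to background) and −log10 q-values.

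Expected counts were rounded and tested with edgeR 4.0.16 in R 4.3.3 (quasi-likelihood F test, TMM, at least 10 counts summed over the libraries fitted, Benjamini-Hochberg over all genes tested). Comparisons used their own 4 libraries and differences between effects 8. The test was checked on simulated data whose changed genes were well counted, which does not cover members with few counts. Promoter peaks overlapped 1 kb either side of a start by at least 1 base, and sequences are from RefSeq. Comparisons that name the same DMSO group share its libraries. Intervals and floors of 3 counts cover counting error only. Members called in any comparison were named, and of pathway lists the 3 most changed called genes. The members and lists were chosen with earlier results of these data known. DESeq2 1.42.0, other scalings and filters, a replicate block and leaving out each library were the alternatives. One promoter window is not reported here.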

Additional observations from a re-analysis of the deposited data

Results flagged for a closer look

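The effect of A-485 on 11 members differed between late and early 2-cell embryos, by the edgeR test of the difference itself (late minus early effect, log2). For members at a countable level in all groups the differences were 1.15 for Bmp15, 1.03 for Bmp5, 1.26 for Fgf1 and 2.02 for Fgf10. For Bmp4 (4.42), Wnt5a (6.11), Bmp8a (8.64), Fgf20 (8.22), Fgf15 (7.49), Wnt16 (6.6) and Bmp8b (6.00) 1 or more groups had 5 counts or fewer in a library, so these fitted differences depend on the prior count and are no bound. Bmp8a had no count in either A-485 library at early 2-cell, against 4 and 5 counts with DMSO, and 29 and 30 counts at late 2-cell, against 5 and 2.

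The calls of Bmp4, Bmp8a, Fgf15, Wnt5a and Wnt16 held under every alternative run. Without the early 2-cell DMSO replicate 1 the difference was 1.56 for Bmp8b, 0.91 for Bmp15, 0.77 for Bmp5, 0.90 for Fgf1 and 1.78 for Fgf10, and without the early 2-cell DMSO replicate 2 it was 7.45 for Fgf20 (edgeR adjusted p = 0.0893), with the call lost in each case. Bmp8b lost it without any of the other libraries but that replicate 2 as well (5.46 to 6.79). The calls of Bmp5, Bmp15, Fgf1 and Fgf10 were each lost without further libraries, at 0.53 to 0.97, 0.93 to 0.94, 0.83 to 1.39 and 1.41 to 1.72.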

How the results depend on the processing

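Of 676 values of 64 named results under the alternatives, 591 kept their direction and their side of the threshold, 83 lost the call and 2 reversed, and 37 results were called under every alternative. Scaling to mitochondrially encoded genes gave 7 members higher after A-485 at late 2-cell, 1 higher and 8 lower from zygote to early 2-cell, 6 higher and 1 lower in the difference of A-485 effects between stages, and 11 higher in that between inhibitors. It reversed Fgf1 from zygote to early 2-cell (-0.20) and the stage difference of Bmp5 (-0.0069); the cause was not tested. With a window of 2.5 kb, 5 members had a promoter peak at late 1-cell after A-485, and with the 7094 strongest peaks 2 had one at early 2-cell with DMSO and 4 after A-485.

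Leaving out each library in turn gave 10 to 12 members higher and 3 lower after A-485 at late 2-cell, and 14 to 17 higher and 1 lower after TSA. It gave 1 to 2 lower after A-485 at early 2-cell, 1 to 3 higher and 1 lower from zygote to early 2-cell, and 1 to 2 higher and 3 to 5 lower from early to late 2-cell. The difference between stages had 6 to 10 higher and 0 lower, and that between inhibitors 3 to 7 higher and 0 to 2 lower. Bmp2 after TSA was not called by DESeq2 (adjusted p = 0.258).

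Same-numbered libraries did not deviate together (r of -0.025 to 0.020), so the numbers do not pair them. With the replicate block 12 members were higher after A-485 at late 2-cell, and the difference between stages had 10 higher and that between inhibitors 8. Among named values the block ended the call of Wnt8a after A-485 (3.02, adjusted p = 0.0515) and that of Bmp8b in the stage difference (5.55, adjusted p = 0.170) and no other. Depth limits members with a few counts in a library, whose folds have wide counting intervals.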
